A study of Mus musculus with 764 samples.

Results

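Immediate early genes are switched on within minutes of a stimulus without new protein synthesis, and in T cells the antigen receptor is their main trigger. The NR4A genes encode orphan nuclear receptors, the EGR genes encode zinc-finger transcription factors, and Fos, Fosl2, Junb and Jun encode subunits of AP-1, a dimeric factor that works with NFAT downstream of calcium and MAP kinase signals. Because these RNAs are short-lived, a cell that contains them is usually read as one that has recently been stimulated. The 10 genes described here (Nr4a1, Nr4a2, Nr4a3, Egr1, Egr2, Egr3, Fos, Fosl2, Junb and Jun) were chosen by name among the 23997 gene rows of the count tables, and all 10 had a row.

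They were measured in single IL-10+ CD4+ T cells sequenced with SMART-seq2, which copies whole transcripts and marks neither molecules nor strands. The tables held 764 cells, 190 from the small intestine and the others from the spleen. The donor mice carried an IL-10 eGFP and a Foxp3 mRFP reporter, so that IL-10-producing and Foxp3-expressing cells fluoresce. All mice had received anti-CD3 antibody (clone 2C11), which engages the receptor complex of every T cell, on alternate days and were killed hours after the last injection, so no untreated cell was available as a baseline. Foxp3+ cells were part of the sort. No label names the animal of a cell, so each tissue is 1 sample, cells are not replicates, and differences between tissues are given as values with no test. After removal of cells with few reads and of cells called S or G2M, 72.1% of small intestinal and 69.9% of spleen cells remained, with medians of 324546 and 353876 reads. The spleen cells filled 3 well sets, namely p1 columns 1 to 12 (69.3% kept), p1 columns 13 to 24 (76.8%) and p2 columns 1 to 12 (63.5%). All small intestinal cells lay in p2 columns 13 to 24, so there the tissue cannot be told apart from the place on the plate. The study's methods isolate gut lymphocytes with EDTA or collagenase at body temperature, and tissue and isolation procedure cannot be told apart either.

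The labelled cell type was checked against its markers. Levels are given in CPM, the reads of a gene after the reads of each cell were scaled to a common total. Cd3e averaged 1370 CPM in small intestinal and 1280 CPM in spleen cells, and Cd4 averaged 1500 and 1554 CPM. B cell markers summed to 4.07 to 23.8 CPM over the 4 sets. Epithelial markers summed to 18.1 to 64.8 CPM and the 4 T cell markers with a row to 5694 to 6824 CPM. The highest myeloid marker was Cd68, with 104.9 against 27.9 CPM in the spleen, while Lyz2 had no read in the kept small intestinal cells. Reads of Cd8a occurred in 28.5% of small intestinal cells (mean 489.4 CPM) and in 0.685% to 2.46% of the spleen sets, and Cd8b1 averaged 38.4 against 31.3 CPM. The spleen sets also differed from each other. Foxp3 had a read in 63.9% of p1 columns 1 to 12, 17.8% of p1 columns 13 to 24 and 6.56% of p2 spleen cells. Il10 averaged 1948, 1920 and 807 CPM in the same sets and 2360 CPM in the small intestine. In cells without a Foxp3 read the median log2 ratio of the members between tissues was 1.10, with 5 members higher and 2 lower, beside 1.05, 5 and 2 in all kept cells. A cell without a Foxp3 read need not be Foxp3-negative. The part of Foxp3+ cells and of the other differences in the results was not tested, and the levels of the members are given per set.

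Start-site windows are shown for the members with a single window in which the upstream sequence carries the core of the cAMP response element, TGACG, which CREB family factors bind and which was read on both strands. Of the 10 members, 8 matched the RefSeq promoter table (GRCm38.p6), all but Egr1 and Egr3. In the 250 bases before the start, Nr4a1, Nr4a2 and Nr4a3 each held 4 copies, Fos held 2 and Junb held 1, while Fosl2 and Jun held none. Egr2 had 5 overlapping or neighbouring windows, 3 of them with 2 copies, and is not printed. Among all 32851 windows of the table, 17.8% held at least 1 copy, 3.90% at least 2 and 0.137% at least 4. The windows below run 5′ to 3′ on the strand of the gene, with the TGACG or its complement CGTCA in capitals, and the Nr4a3 window stops at 98 bases, where an annotated exon begins, so that 3 of its 4 copies are printed. They lie at chr15:101266596-101266845 (plus strand, Nr4a1), chr2:57124004-57124253 (minus strand, Nr4a2), chr4:48045055-48045152 (plus strand, Nr4a3), chr12:85473640-85473889 (plus strand, Fos) and chr8:84978749-84978998 (minus strand, Junb).
Nr4a1: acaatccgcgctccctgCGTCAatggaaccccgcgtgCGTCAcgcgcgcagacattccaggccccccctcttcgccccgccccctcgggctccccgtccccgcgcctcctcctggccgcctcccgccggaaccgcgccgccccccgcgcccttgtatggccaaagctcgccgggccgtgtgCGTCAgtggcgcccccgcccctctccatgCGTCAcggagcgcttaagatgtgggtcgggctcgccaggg
Nr4a2: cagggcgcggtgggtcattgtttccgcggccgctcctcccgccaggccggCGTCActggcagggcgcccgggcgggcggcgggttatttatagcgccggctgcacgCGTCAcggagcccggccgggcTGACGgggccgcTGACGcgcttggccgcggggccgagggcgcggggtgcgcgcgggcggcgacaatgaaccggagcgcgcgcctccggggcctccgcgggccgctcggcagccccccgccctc
Nr4a3: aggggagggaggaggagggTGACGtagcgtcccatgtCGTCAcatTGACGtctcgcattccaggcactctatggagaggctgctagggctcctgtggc
Fos: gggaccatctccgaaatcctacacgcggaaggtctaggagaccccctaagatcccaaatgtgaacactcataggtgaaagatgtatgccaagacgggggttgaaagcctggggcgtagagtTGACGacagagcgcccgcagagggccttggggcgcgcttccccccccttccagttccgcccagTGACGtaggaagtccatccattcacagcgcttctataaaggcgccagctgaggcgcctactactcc
Junb: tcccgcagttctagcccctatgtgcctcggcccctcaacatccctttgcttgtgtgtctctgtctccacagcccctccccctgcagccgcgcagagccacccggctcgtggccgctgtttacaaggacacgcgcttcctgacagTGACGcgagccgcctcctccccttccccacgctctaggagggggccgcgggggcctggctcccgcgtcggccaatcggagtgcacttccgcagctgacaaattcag

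No member window held the whole element TGACGTCA, which contains the core (1.55% of all windows), the AP-1 site TGACTCA (4.46%), the EGR site GCGTGGGCG (0.536%) or the NR4A site AAAGGTCA (1.34%). A CArG box, bound by serum response factor, was present in 4 of the 5 Egr2 windows and in 1.47% of all windows. These matches describe letters and not binding.

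The first question was whether the response genes stood at the same level in the IL-10+ cells of both tissues, and they did not move as one group. Fosl2, Nr4a2, Junb, Jun and Nr4a1 were higher in the small intestine, Egr2 and Egr3 were higher in the spleen, and Egr1, Fos and Nr4a3 did not reach the fold rule. A gene was called when it averaged at least 10 CPM in one tissue, differed at least 2-fold from the spleen and lay on the same side of each spleen set. By this rule 5 of the 9 members tested were higher and 2 lower in the small intestine. The background among the 8819 genes tested was 8.25% higher and 16.8% lower. The lower count was near its background share and is not read as a result about the members. Nr4a3 stayed under the minimum level, and Egr3 reached it through the spleen alone. The median log2 ratio was 1.05 over all 10 members and 1.43 over the 9 tested, beside -0.22 over all genes tested. Of the called genes, 32.9% were higher with CPM, but 43.4% with TMM and 45.3% with DESeq2 size factors, which moved the median gene to -0.05 and -0.03. Relative to the median gene, the ratio was 3.60 for Fosl2, 2.53 for Junb, -1.57 for Egr2 and -0.81 for Egr3. The same 10 signs were seen under every alternative of the ratio.

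**Figure D1:**
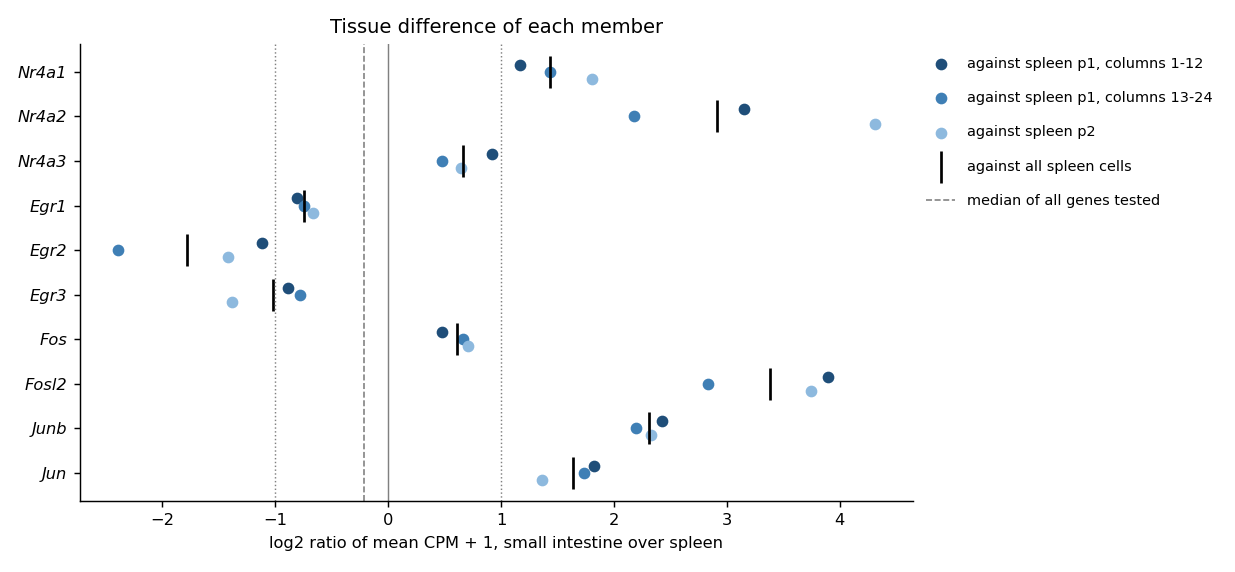
Log2 ratio of mean CPM + 1, small intestine over spleen (horizontal axis), for each member (vertical axis), against each of the 3 spleen well sets (points) and all spleen cells (black ticks). Dotted lines mark 2-fold, and the dashed line marks the median of all genes tested (-0.22). Fosl2 (2.83 to 3.89) and Nr4a2 (2.18 to 4.31) lie farthest to the right and Egr2 (-2.40 to -1.11) farthest to the left.

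Compared per kilobase of the longest annotated transcript, Junb was the most abundant member in both tissues, at 782 CPM per kb in the small intestine compared with 157.4 CPM per kb in the spleen. The order below it differed. In the small intestine Nr4a1 (174.6 CPM per kb), Fos (136.9) and Fosl2 (99.8) came next, and Egr1 (48.4) followed. In the spleen Fos (89.3 CPM per kb), Egr1 (81.1) and Nr4a1 (64.4) lay close together, whereas Fosl2 (9.46) and Jun (9.26) were nearly equal and stood below Egr2 (29.7). Nr4a3 was last in both tissues, at 1.30 and 0.755 CPM per kb. The 10 members together summed to a mean of 3242 CPM per small intestinal cell and to 1203, 1312 and 1115 CPM in the spleen sets.

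**Figure D2:**
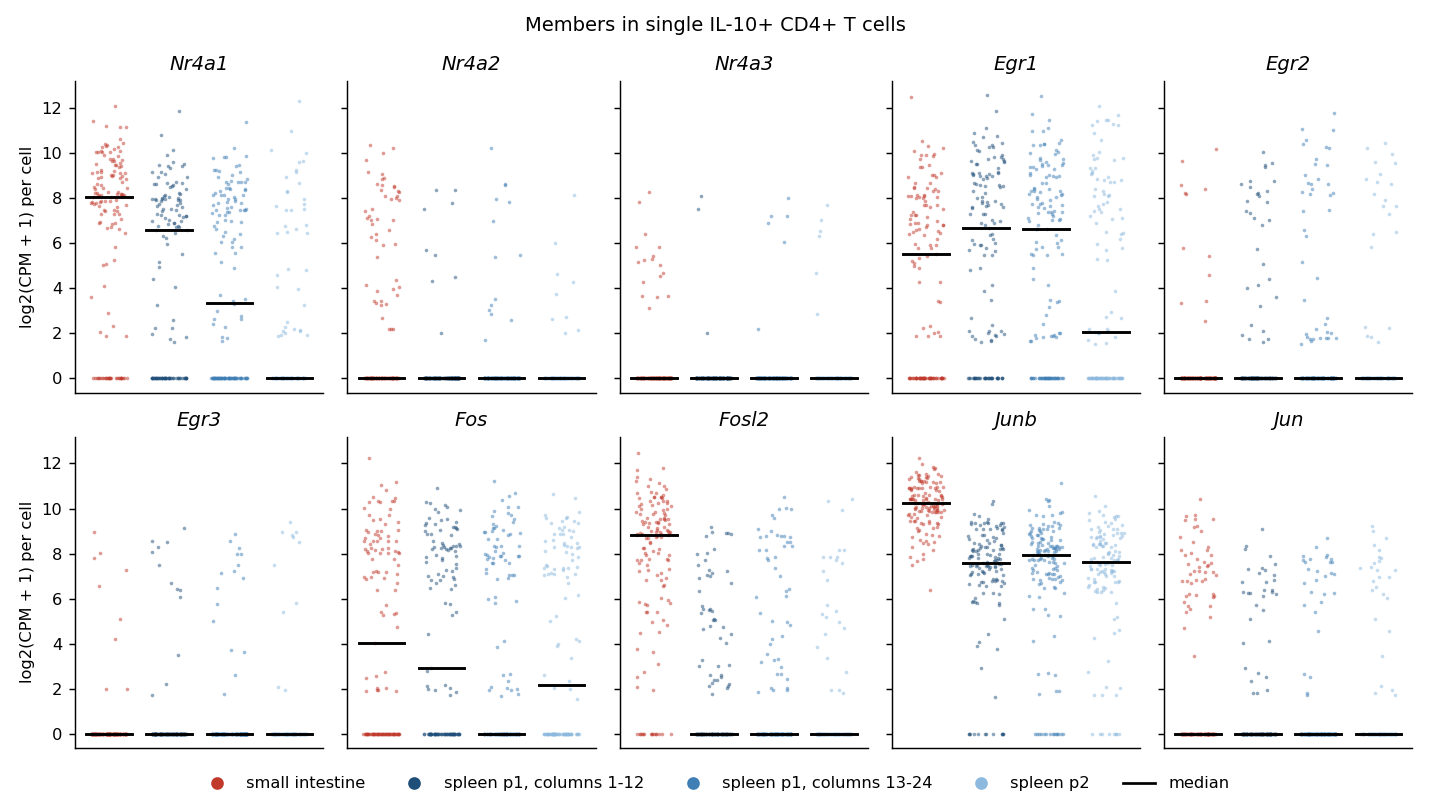
Level of each member in every kept cell, as log2(CPM + 1) on the vertical axis, in the small intestine (red) and the 3 spleen well sets (blue). Each point is 1 cell, points at 0 are cells without a read, and black lines are medians. Junb has a read in 100% of small intestinal cells, while Nr4a2, Nr4a3, Egr2, Egr3 and Jun have a median of 0 in all sets.

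Nr4a1, also called Nur77, is the member used most widely as a reporter of antigen receptor signalling. It ranged from 0 to 4375 CPM over small intestinal cells with a median of 260 CPM, and the medians of the spleen sets were 94.4, 9.33 and 0 CPM. The means were 445.8 CPM (SD over cells 616) in the small intestine, against 198.4, 164.9 and 127.2 CPM in the sets, a ratio of 2.71-fold over all spleen cells (log2 1.43, and 1.16 to 1.80 by set). The tissues overlapped cell by cell, since the highest spleen cell reached 5146 CPM. At least 10 reads were found in 72.3% of small intestinal cells (95% interval 63.97 to 79.6%), compared with 54.9%, 47.9% and 20.5% of the spleen sets. The last set, p2, differed from the others in its distribution more than in its mean, because its 7 highest cells (the top 5%) held 77.5% of all its Nr4a1 reads, compared with 31.1% for the 7 highest cells of the small intestine. Thinning every cell to 200000 reads gave 73.5% in the small intestine and 53.9%, 44.2% and 19.6% in the sets.

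Nr4a2, also called Nurr1, was rarer and more unequal. Its median was 0 CPM in all 4 sets and its highest cell reached 1301 CPM (small intestine) and 1197 CPM (spleen). Small intestinal cells averaged 87.1 CPM and the spleen sets 8.91, 18.4 and 3.43 CPM, or 8.13-fold over all spleen cells (log2 2.91). It had at least 10 reads in 35 small intestinal cells (25.5%, interval 18.5 to 33.7%) but only 16 spleen cells (3.99%, interval 2.30 to 6.40%). The spleen means rested on these few cells, as the top 5% held at least 97.9% of the reads in each set. Nr4a3, also called Nor1, had at least 10 reads in 7 small intestinal cells (5.11%, interval 2.08 to 10.2%) and 12 spleen cells (2.99%, interval 1.56 to 5.17%), with means of 7.41 and 4.32 CPM. The intervals of these shares overlapped, but they cover counting error over cells and do not compare the tissues. With at least 1 read they were 7.40 to 19.1% in the small intestine and 2.11 to 6.09% over all spleen cells. By set, those of p1 columns 13 to 24 and p2 reached up to 8.73% and 10.4% and overlapped that of the small intestine.

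Egr1, which is induced through the MAP kinase pathway, was the only member found in a majority of all spleen cells with a mean above that of the small intestine. Its median was 45.4 CPM in small intestinal cells, against 99.8, 99.4 and 3.13 CPM in the spleen sets, and the highest cells reached 5752 and 6058 CPM. The means of 217.04 CPM (SD 558.9) and 363.7 CPM (SD 736) gave a log2 ratio of -0.74, close to the same value against each set (-0.81, -0.74 and -0.67) but short of 2-fold. The share of cells with at least 10 reads was 54.7% (interval 46.02 to 63.3%) in the small intestine. Over all spleen cells it was 55.4% (interval 50.3 to 60.3%). By spleen set it was 61.7%, 59.6% and 43.4%, so the pooled share joined sets on both sides of the small intestine.

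Egr2 and Egr3, which restrain T cell activation, were found in few cells of either tissue. Egr2 averaged 24.8 CPM in small intestinal cells, compared with 54.9, 134.95 and 67.9 CPM in the spleen sets, 3.55-fold higher over all spleen cells. Its share with at least 10 reads was 5.84% (8 cells, interval 2.55 to 11.2%) against 15.7% (63 cells, interval 12.3 to 19.6%), and in the small intestine 7 cells held 97.6% of the reads. Egr3 averaged 9.40 CPM (small intestine) and 20.1 CPM (spleen). It had at least 10 reads in 6 and 30 cells (4.38%, interval 1.62 to 9.29%, and 7.48%, interval 5.10 to 10.51%). These intervals overlapped, but they cover counting error over cells and do not compare the tissues. Against the single spleen sets Egr3 lay at -0.88, -0.78 and -1.39, and it passed 2-fold only against p2. Its ratio under other settings ran from -1.58 to -0.27, and the Egr3 call was lost under several of them. As a difference of mean log2 values per cell, neither Egr2 nor Egr3 passed 2-fold.

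Fos, the partner of the JUN proteins in the classical AP-1 dimer, differed little. It had at least 10 reads in 48.2% of small intestinal cells (interval 39.6 to 56.9%), against 48.9%, 37.7% and 44.3% of the spleen sets. The means were 288.6 CPM and 207.1, 181.5 and 176.1 CPM, a log2 ratio of 0.61, with single cells up to 4802 CPM (small intestine) and 2398 CPM (spleen). Jun had at least 10 reads in 34.3% of small intestinal cells (interval 26.4 to 42.9%), against 18.05%, 16.4% and 17.2% of the spleen sets. Its means were 94.1 CPM and 25.9, 27.5 and 35.9 CPM (3.19-fold over all spleen cells), and its spleen sets lay closer together than their distance from the small intestine. An antisense gene, Junos, overlaps Jun, and SMART-seq2 reads cannot be assigned to a strand.

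Fosl2, which encodes Fra-2, a FOS family protein without the strong activation domain of Fos, showed the largest difference of the 10 members over all spleen cells, although against p2 alone that of Nr4a2 was larger (log2 4.31 beside 3.75). It had at least 10 reads in 81.8% of small intestinal cells (interval 74.3 to 87.8%), against 21.8%, 21.9% and 13.1% of the spleen sets. Its median was 455.2 CPM in small intestinal cells but 0 CPM in every spleen set, and the highest cells reached 5656 and 1479 CPM. The means were 652 CPM (SD over cells 819) and 42.97, 90.8 and 47.6 CPM, or 10.6-fold over all spleen cells (log2 3.38). After thinning, 76.5% of small intestine and 16.1% of spleen cells still had at least 10 reads. The difference was thus present in the number of cells with the gene as well as in its level.

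Junb, the most uniform member, had at least 10 reads in 100% of small intestinal cells (interval 97.3 to 100%) and 86.5%, 84.9% and 84.4% of the spleen sets. Small intestine cells ranged from 82.6 to 4817 CPM with a median of 1209 CPM, and spleen cells ranged from 0 to 2268 CPM with medians of 188.4, 243.2 and 197.3 CPM. The means of 1415 CPM (SD 880) and 284.7 CPM (SD 277.5) gave 4.97-fold (log2 2.20 to 2.42 by set), and the distributions overlapped in their tails. An exon of Prdx2 overlaps Junb on the other strand, and reads in the overlap cannot be assigned. Prdx2 itself was lower in the small intestine (164.6 CPM) than in the spleen sets (193.4, 220 and 221.3 CPM), and its correlation with Junb across cells lay between -0.08 and 0.10 in the 4 sets.

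**Figure D3:**
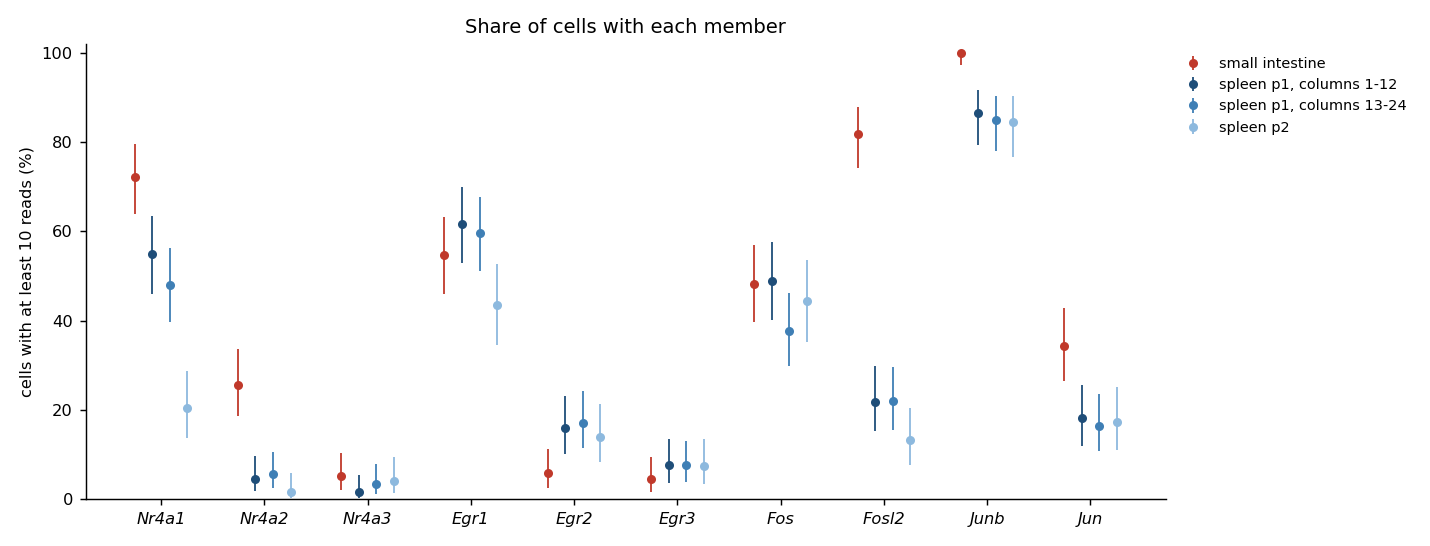
Share of kept cells with at least 10 reads of each member (vertical axis, %), in the small intestine and the 3 spleen well sets. Bars are exact 95% binomial intervals, which cover counting error only. Fosl2 (81.8% against 13.1 to 21.9%) has the widest gap between tissues, and the Nr4a1 share of p2 (20.5%) lies apart from the other spleen sets.

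Within the spleen some members also differed between the well sets, which are the only division within a tissue. The sets also differed in Foxp3 and Il10, as given above, so they cannot be taken as repeat samples. Between p1 columns 1 to 12 and p1 columns 13 to 24, Egr2 (log2 -1.28) and Fosl2 (-1.06) were at least 2-fold lower in the former and no member was higher, against 4.89% lower and 4.18% higher of all genes tested. Between p2 and p1 columns 13 to 24, Nr4a2 was lower (-2.13) and none was higher, against 6.22% and 6.52%. Between p2 and p1 columns 1 to 12 no tested member passed 2-fold, against 6.22% lower and 7.45% higher. Nr4a2 (log2 -1.16) was not tested there, because it averaged under 10 CPM in both sets. The 5 members called higher in the small intestine had log2 ratios against the nearest spleen set of 1.16 (Nr4a1), 2.18 (Nr4a2), 2.83 (Fosl2), 2.20 (Junb) and 1.37 (Jun). The 2 called lower had -1.115 (Egr2, beside -1.28 between the p1 sets) and -0.78 (Egr3).

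The members were then counted within single cells. A small intestinal cell had at least 10 reads of 4.32 members on average (SD 1.53, range 1 to 9) and a spleen cell of 2.93 (SD 1.68, range 0 to 9), with 3.21, 3.02 and 2.50 in the sets. No small intestinal cell lacked all members, which at this number of cells allows a share of up to 2.19%, while 17 spleen cells (4.24%) lacked all. At least 5 members were present in 43.1% of small intestinal cells (interval 34.6 to 51.8%) but 20.3%, 21.9% and 9.84% of the spleen sets. No cell of either tissue had all 10.

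By family, at least 1 NR4A gene was present in 76.6% of small intestinal cells and in 55.6%, 52.1% and 22.1% of the spleen sets. An EGR gene was present in 56.2% of small intestinal cells and in 65.4%, 62.3% and 45.9% of the sets, and an AP-1 gene in 100% and in 93.2%, 88.4% and 90.98%. Fosl2 was found without any EGR gene in 34.3% of small intestinal cells (interval 26.4 to 42.9%) but in 3.76%, 2.74% and 4.10% of the spleen sets. The converse, an EGR gene without Fosl2, made up 8.76% of small intestinal cells (interval 4.61 to 14.8%) and 47.4%, 43.2% and 36.9% of the sets. These shares depend on that of Fosl2 itself, which was 81.8% in the small intestine and 19.2% in the spleen. For Fosl2 with Egr1, the product of their shares gave 61.3 small intestinal cells, beside 63 counted. In the spleen sets it gave 17.9, 19.1 and 6.95 cells, beside 24, 27 and 11 counted. The product for any EGR gene was not computed. Nr4a1 without an EGR gene made up 27.01% of small intestinal cells and 12.03%, 11.6% and 5.74% of the sets, and an EGR gene without Nr4a1 made up 10.95% and 22.6%, 26.03% and 31.1%. In the spleen 63 of the 77 cells with Fosl2 also had an EGR gene, and in the small intestine 65 cells had both and 47 had Fosl2 without one.

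Co-expression was described by Spearman's rho of CPM across the cells of a set, with no test, since the cells share plate, library preparation and depth. The median over the 45 pairs of members was 0.121 in the small intestine and 0.104 as the mean of the spleen sets, beside 0.01 and 0.015 for all pairs of genes. A rho of at least 0.2 was reached by 12 pairs in the small intestine and 11 in the spleen, against 2.05% and 0.444% of all gene pairs. By single spleen set the number of such pairs was 6, 12 and 19, for which no share of all gene pairs was computed. The highest value was 0.31 in the small intestine and 0.308, 0.485 and 0.457 in the spleen sets.

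The strongest pair that both tissues shared was Nr4a1 with Egr1, at 0.31 in the small intestine and 0.267, 0.336 and 0.369 in the spleen sets. Both genes had at least 10 reads in 61 small intestinal cells, beside 54.2 cells given by the product of their shares. Besides it, Egr1 with Egr2 (0.219, then 0.283, 0.263 and 0.412) and Fosl2 with Junb (0.261, then 0.203, 0.296 and 0.26) were the only pairs of at least 0.2 in all 4 sets. Other pairs differed in value between tissues, and these differences were not tested. Egr1 with Fosl2 had a rho of 0.055 in the small intestine and 0.202, 0.326 and 0.33 in the spleen sets. Fosl2 with Jun had 0.307 against 0.129, 0.144 and 0.0143, and Fos with Jun had 0.31 against 0.0926, 0.27 and 0.0262. Egr2 with Egr3 varied within the spleen, at 0.114, 0.485 and 0.371 in the sets, beside 0.124 in the small intestine. The lowest small intestinal value was -0.173, for Nr4a2 with Junb.

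**Figure D4:**
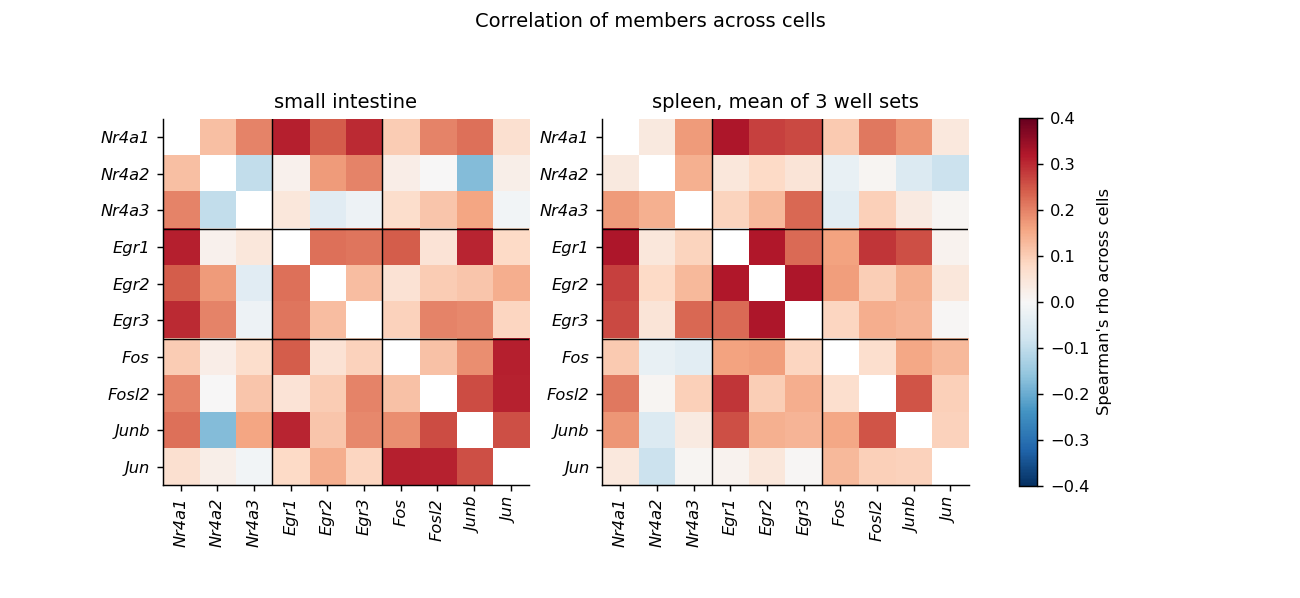
Spearman's rho of CPM across cells (colour scale, -0.4 to 0.4) for the 45 pairs of members in the small intestine and as the mean of the 3 spleen well sets. Black lines separate the NR4A, EGR and AP-1 genes. In the small intestine Jun pairs with Fos (0.31) and Fosl2 (0.307), and in the spleen Egr1 pairs with Nr4a1 (0.324), Egr2 (0.32) and Fosl2 (0.286).

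Because the cells were sorted for IL-10, each member was also set beside Il10, the gene of the cytokine itself. The highest spleen value was that of Egr1, with a rho of 0.346, 0.429 and 0.432 in the sets and a mean of 0.403, which 0.0344% of the 8712 genes tested exceeded. In the small intestine its rho was 0.11. Fosl2 showed 0.296, 0.314 and 0.103 in the spleen sets and 0.0036 in the small intestine, where most cells had the gene. Junb had 0.184 in the small intestine and a spleen mean of 0.181, and Nr4a1 had 0.144 and 0.161. The remaining 6 members had spleen means between -0.03 (Jun) and 0.121 (Egr2).

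With a rho of at least 0.2, the count was 2 of 10 members as the mean of the spleen sets (Egr1 and Fosl2), against 1.22% of all genes, and 0 of 10 in the small intestine, against 0.769%. By single set it was 2, 4 and 1, and Egr1 was among them in each. The share of all genes was taken for the mean of the sets only. The upper end of the central range over all genes was 0.164, 0.162 and 0.209 in the single sets, beside 0.129 for the mean. The single-set counts can therefore not be read against 1.22%. At -0.2 or below there was no member in either tissue, against 1.14% of genes for the spleen mean and 1.42% for the small intestine. The median over the 10 members was 0.112 (spleen) and 0.0204 (small intestine), beside 0.0083 and -0.0098 over all genes. Given total reads and the number of genes per cell, the partial rho of Egr1 with Il10 in the spleen was 0.408, and after thinning it was 0.418. Among spleen cells with an Il10 read it was 0.375. The eGFP reporter transcript had a rho with Egr1 of 0.108, 0.275 and 0.326 in the spleen sets and 0.07 in the small intestine.

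**Figure D5:**
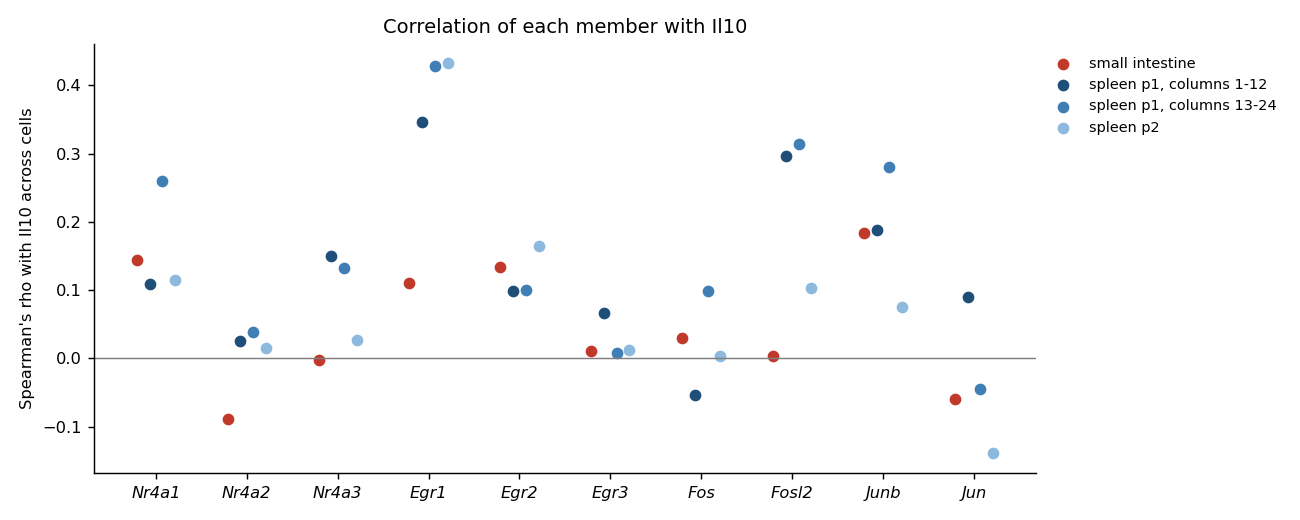
Spearman's rho of each member with Il10 across cells (vertical axis), in the small intestine (red) and the 3 spleen well sets (blue). Egr1 lies at 0.346 to 0.432 in the spleen sets and at 0.11 in the small intestine, and the small intestine values of all members lie between -0.09 and 0.184.

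Related genes from lists of the same pathways were placed beside the members, with means over all spleen cells, and their counts stand beside the 8.25% higher and 16.8% lower among all genes tested. Of 19 tested genes in a list of other immediate early genes, 10 were higher and 2 lower in the small intestine, with a median log2 ratio of 1.43. The higher genes included Gadd45b, a stress-induced MAP kinase regulator (798 against 59.3 CPM, log2 3.73), Btg2, an antiproliferative gene (868 against 151.1 CPM, 2.51), Rgs1, a regulator of G protein signalling (8416 against 624 CPM, 3.75), and the zinc-finger gene Klf6 (394.4 against 75.4 CPM, 2.37). Klf2, a factor of quiescent and circulating T cells, was lower (4.42 against 102.1 CPM, -4.25). Among 5 tested genes in a list of other AP-1 genes only Fosb was called (44.8 against 9.62 CPM), and the median was 0.43.

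Feedback genes of the MAP kinase and EGR pathways were split, with 3 of 11 higher, 2 lower and a median of 0.23. The phosphatases Dusp1 (1214 against 252.4 CPM), Dusp4 and Dusp5 were higher, while Dusp2 (641.8 against 1019 CPM) leaned the other way and was not called. Nab2, an EGR co-repressor that is itself an EGR target, was lower (14.99 against 72.7 CPM, log2 -2.20), as were Egr2 and Egr3. Spry1 was lower too (8.61 against 66.2 CPM). Nab1, on the same list as Nab2, went the other way against every spleen set (log2 0.87 over all spleen cells) and was not called. Of 13 tested calcium and NFAT targets, 2 were higher and 5 lower with a median of -0.83. Bhlhe40 was higher (1132 against 117.1 CPM), and Irf8 (67.05 against 392.3 CPM) and Tox (48.4 against 144.8 CPM) were lower. Of 12 proximal signalling genes of the receptor none was higher and 1, Cd28, was lower, with a median of -0.23, close to that of all genes.

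Heat shock genes, which respond to tissue handling, had a lower sum in the small intestine. They summed to 2239 CPM in the small intestine and to 3834, 3779 and 3557 CPM in the spleen sets, and of 11 tested genes 1 was higher (Dnajb4) and 2 were lower (Hspd1 and Hsph1), shares near those of all genes. Most of the lower sum came from Hsp90ab1 (1245 against 2337 CPM), which was not called. Across cells the mean of the members had a rho with the mean of the heat shock genes of 0.223 in the small intestine and 0.0436, 0.228 and 0.0449 in the spleen sets. With total reads per cell it was -0.0733 and -0.194, -0.111 and 0.0017, and with well column it lay between -0.0735 and 0.0968.

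Genes with the most similar pattern were ranked by the mean over the 4 sets of their rho with the average of the members, among 3981 genes with a mean of at least 10 CPM in both tissues and a read in at least 25% of cells of each set. The median of these genes was 0.0068. The highest were Kdm6b, a histone H3 demethylase (0.30), Irf4, a factor whose level follows receptor strength (0.289), and Rilpl2 (0.272). Irf4 had 0.218, 0.48 and 0.413 in the spleen sets but 0.0471 in the small intestine, whereas Kdm6b had 0.17, 0.397 and 0.356, and 0.275. Ier2 (0.266), Zfp36l1 (0.255), Nfkbid (0.253) and Zfp36 (0.249) followed, of which Ier2, Zfp36 and Zfp36l1 are on the list of immediate early genes. Il10 was the eighth at 0.248, with 0.322, 0.358 and 0.243 in the spleen sets and 0.0679 in the small intestine, and Twsg1 (0.235) and Hif1a (0.224, but 0.0136 in the small intestine) completed the 10. Neither Kdm6b (log2 ratio 0.31) nor Irf4 (-0.83) was called between tissues.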

How the data were processed

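Single IL-10+ CD4+ T cells from 2 tissues (764 cells) were sequenced with SMART-seq2 and aligned by the authors with STAR. Their methods name the Mm8 genome, whereas the labels name mm10, and the counting tool and annotation are not given in the sources used here. The deposited tables hold raw read counts per gene, with no depth scaling, and all columns were used.

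Cells more than 3 median absolute deviations below the tissue median of log reads or log genes were removed (limits of 170584 reads in the small intestine and 161898 in the spleen), and those that cyclone (scran 1.30.0) placed in S or G2M were left out. Of 190 small intestinal cells 137 were kept, and of 574 spleen cells 401 (133 and 146 in the first and second well sets of p1, and 122 on p2). No doublet caller was run, since cells were sorted singly into wells. Kept cells had 162801 to 622997 reads. CPM was computed per cell over gene rows, and the log2 ratio was taken of mean CPM with a pseudocount of 1, which understates changes of low genes. Intervals are exact Clopper-Pearson (95%) and cover counting error only, since reads carry no molecular identifiers. For a share of 0 the limit is 3 cells of the total.

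Each tissue is 1 sample, so no p-value was computed. The genes named are the members, Il10, eGFP and Foxp3, genes from the pathway and marker lists, and the 10 genes most similar to the members. List genes could be named if they passed 2-fold or, for other cell types and heat shock, had reads in over 10% of cells. Not every such gene is named. Lyz2, Prdx2, Dusp2 and Nab1 lie outside this rule and were chosen after their values were seen. Trac, Trbc1, Trbc2 and Adgre1 had no row. Of the named groups, 5 epithelial markers were too low to test and Epcam (9.00 against 29.7 CPM) was not called. The members, lists and motifs were chosen with earlier results of these data known. Transcript lengths and overlaps came from GENCODE vM21. Scripts for ratios and correlations were tested on simulated data. Alternatives covered filters, pseudocounts, scaling (edgeR 4.0.16 TMM, DESeq2 1.42.0), well sets, thinning and correlation type. Python 3.11.15, scipy 1.17.1 and R 4.3.3 were used.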

Additional observations from a re-analysis of the deposited data

Results flagged for a closer look

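The cells called S or G2M, which were left out of the comparisons and entered only the alternatives without the cell cycle or any cell filter, also contained the members, and this is why they are listed here. Egr1 had at least 10 reads in 61.8% of the 34 such small intestinal cells (interval 43.6 to 77.8%), compared with 56.3% of such spleen cells (interval 47.8 to 64.6%). Fosl2 had at least 10 reads in 76.5% of these small intestinal cells (interval 58.8 to 89.3%), compared with 16.2% of the spleen cells (interval 10.55 to 23.3%). There is no untreated control for these shares.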

How the results depend on the processing

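No paired analysis was possible because the labels give no animals or replicate numbers and no test was run. The median log2 ratio of the 10 members (1.05) became 1.14 without the cell cycle filter, 1.01 without any cell filter, 1.10 and 0.988 with pseudocounts of 0.1 and 10 CPM, 1.20 with TMM, 1.22 with DESeq2 size factors, 1.10 from summed reads, 1.04 against p2 alone, 1.10 in cells without a Foxp3 read, 1.21 without the top 1% of cells and 0.931 as a difference of mean log2 values. Each moved by more than the SD of this median over spleen sets (0.00488). That SD does not measure the spread of single members, whose ratios varied more by set (Nr4a1 1.16 to 1.80, Nr4a2 2.18 to 4.31). The count of members higher in the small intestine stayed between 4 and 6. The count lower (2) was 1 with a pseudocount of 10, TMM, DESeq2 size factors, summed reads, a 3-fold rule, or against p1 columns 1 to 12 or p1 columns 13 to 24 alone, and 0 as a difference of mean log2 values; the cause was not tested. The number of members per cell was 4.88 (small intestine) and 3.61 (spleen) at 1 read, and 2.50 in p2 spleen alone. The spleen pair median was 0.138 with Pearson's r (0.104 otherwise), and the spleen median with Il10 (0.112) was 0.0763 without cell filters and 0.0518 in p2 alone. All 10 members kept the sign of their ratio in 13 alternatives. At this number of cells a share of 0 allows up to 2.19% of small intestine cells, and with 1 sample a tissue no value has a replicate check.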

Other observations

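Among the cells called S or G2M, the small intestinal cells had at least 10 reads of 4.56 members on average (SD 1.58, 34 cells) and the spleen cells of 3.06 (SD 1.57). Fos had at least 10 reads in 61.8% of these small intestinal cells and 57.7% of these spleen cells, and Junb in 100% and 87.3%.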
